A study of Rattus norvegicus with 36 samples.

Results

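The liver of vitamin A deficient male Wistar rats was compared after daily injections of retinyl palmitate and after injections of vehicle, both following a sham operation. The samples were chosen by their titles alone: 4 arrays from vitamin A deficient (VAD) sham rats given retinyl palmitate (VITA) and 4 arrays from VAD sham rats given vehicle, 8 of the 36 arrays of the series. The series crossed diet, operation and injection in 8 groups of 4 or 5 biological replicates, with 1 liver array per rat. 4 further groups are used below: vitamin A sufficient (VAS) sham rats given VITA (4 arrays) or vehicle (4 arrays), and VAD rats with bile duct ligation (BDL) given VITA (5 arrays) or vehicle (5 arrays). Every group shared the sex, the strain and the intraperitoneal injections, and the deficient rats were deficient before they were operated on. Dose, length of treatment and age are not stated in the labels.

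Vitamin A is stored in the liver as retinyl esters such as retinyl palmitate, which are hydrolysed to retinol and oxidised to retinoic acid. Retinoic acid binds nuclear receptors (RAR, paired with RXR) that act on DNA elements built from repeated hexamers, and it switches on Cyp26a1, the enzyme that breaks it down. Rat liver also differs strongly between the sexes: the pattern of growth hormone release sets a group of male-specific and female-specific genes, among them members of the Cyp2c family of cytochrome P450 enzymes.

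RNA was measured on Illumina bead arrays, whose bead intensities were background corrected, quantile normalised and put on a log2 scale. Levels below are these log2 intensities, and differences are log2 differences between group means, VITA minus vehicle, with the standard error (SE) in brackets. The p-values are two-sided, from limma, adjusted across the 9314 genes tested, and a gene is called changed where its adjusted p is under 0.05. Precision is limited by the 4 arrays per group. VITA arrays had 7659.2 ± 259.1 probes detected and vehicle arrays 7268.2 ± 465.0 (SD, n = 4 each; exact permutation test, two-sided p = 0.23, smallest possible 0.029). The lowest array was vehicle replicate 4, with 6577 probes (29.2%). The VITA arrays lay on slides 1, 2, 2 and 3 and the vehicle arrays on slides 1, 1, 3 and 3. The arrays of slide 3 stood apart from the other arrays of their own group on the first principal component of the 16 sham arrays (20.2% of the variance), and vehicle replicates 3 and 4 lay farthest out, at 31.4 and 36.6. Counts are therefore also given without slide 3. Hepatocyte markers marked the tissue in both groups: 24 of the 25 with a probe were tested, with mean levels per array of 13.87 to 14.02 in VITA livers and 13.96 to 14.2 in vehicle livers, and 0 of the 24 were called.

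The genes called between VITA and vehicle livers were a small part of those tested. An unadjusted p under 0.05 (limma) was reached by 1066, more than the share of 0.05 that would pass if no gene differed. The calls therefore need not hold every gene that changed. Of 9314 genes, 121 were called (1.3%): 69 higher in VITA livers (0.741%) and 52 lower (0.558%). The difference exceeded 2-fold in 44 of the higher and 29 of the lower genes, while the median over all genes tested was -0.002. The counts for gene lists below stand beside the 1.3% called over all genes. At that share a short list can hold 0 called genes without differing from other genes. The groups did not overlap for 110 of the 121 called genes, against 580 of all 9314 genes (6.23%). All 121 differed in the same direction within slide 1 and within slide 3, the slides that held both groups, although these arrays also entered the calls. Without slide 3, which left 3 VITA and 2 vehicle arrays, 46 genes were called, 32 of them among the 121. Genes named below that lost the call without slide 3 include Rbp7, Cyp2c6v1, Mup18, Mup4l3, Irs3, Acaca, Ablim3, Colq and Mybl1. With slide as a block 115 were called, 94 of them among the 121. Median scaling in place of quantile normalisation put the median of all genes at 0.121 and called 105 genes, 84.8% of them higher, against 57.0% higher in the counts above; calls of small decreases and list medians therefore hold relative to that shift. Leaving out VITA replicate 1 left 74 calls, VITA replicate 2 left 70, and vehicle replicate 4 left 67. Array signal comes from whole tissue, so that fewer cells of a type and less RNA per cell cannot be told apart.

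**Figure D1:**
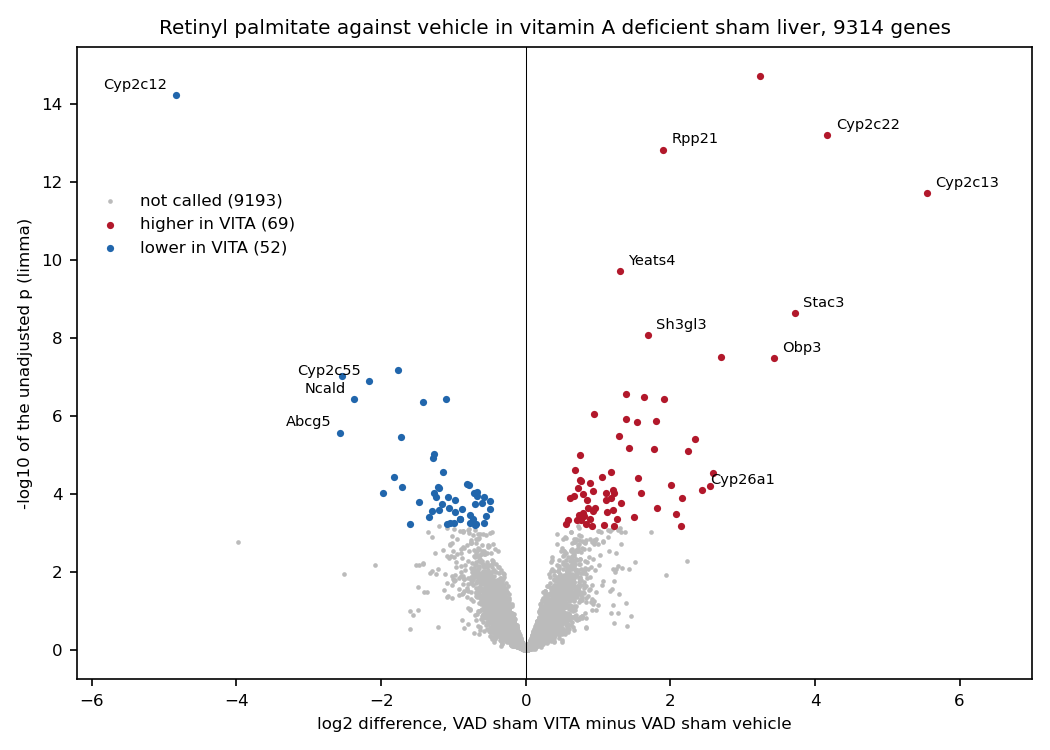
Each of the 9314 genes is a point, with the log2 difference of VITA minus vehicle in VAD sham liver on the horizontal axis and -log10 of limma's unadjusted p on the vertical axis. The 69 genes called higher are red and the 52 called lower are blue. Cyp2c13 and Cyp2c22 lie farthest to the right, and Cyp2c12 lies far to the left of all other genes.

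Cyp26a1, the retinoic acid hydroxylase, was detected on 4 of 4 VITA arrays and on 0 of 4 vehicle arrays. Its log2 levels were 7.12, 7.46, 7.94 and 7.21 in VITA livers, against 5.24, 5.07, 5.00 and 4.66 in vehicle livers. The groups did not overlap, and Cyp26a1 was at least 3.21-fold higher in VITA livers (adjusted p = 0.014), a lower bound because no vehicle array had it above background. The call was lost without vehicle replicate 4 (2.33, adjusted p = 0.054), without slide 3 and in the authors' deposited value table. The 250 bases before the RefSeq start of rat Cyp26a1 are shown because they hold the kind of element that the retinoic acid receptors bind, with half-sites in capitals (GRCr8, chr1:244883572-244883821, plus strand).
Cyp26a1: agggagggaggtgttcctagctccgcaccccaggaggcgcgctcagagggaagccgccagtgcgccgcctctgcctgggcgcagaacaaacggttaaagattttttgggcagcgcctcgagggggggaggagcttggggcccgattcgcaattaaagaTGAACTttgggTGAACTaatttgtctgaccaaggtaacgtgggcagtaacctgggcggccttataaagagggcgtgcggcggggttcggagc
The pair of capitals in this sequence is a direct repeat on the opposite strand, with 5 bases between the half-sites, from 92 to 76 bases before the start. The search accepted AGGTCA, the consensus hexamer of these receptors, as a half-site on both strands. The form GGGTCA was accepted as well. So was AGTTCA, and the last form accepted was GGTTCA. Pairs in the same orientation were then sought with 1, 2 or 5 bases between them. A repeat spaced by 5 bases was found in 109 of 33469 RefSeq promoter windows of the same length (0.326%). Of the 90 called genes with a window, 1 had it, Cyp26a1. Repeats spaced by 1 or 2 bases were in 0 of the 90 windows, against 0.194% and 0.137% of all windows. A match of letters is a description of the sequence, and binding was not measured.

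Of the listed genes that handle vitamin A, 1 was called beside Cyp26a1. The list leaves out Cyp2c22 and Cyp2c7, which also hydroxylate retinoic acid. Cyp2c22 was called higher and Cyp2c7 was not called, as described below. Of 32 genes of retinoid storage, transport and oxidation that were tested (of 49 listed, 41 with a probe), 1 rose, Cyp26a1, and 1 fell, the cellular retinol-binding protein gene Rbp7. Over all genes tested 1.3% were called. An unadjusted p under 0.05 (limma) was reached by 12 of the 32, against 1066 of 9314 genes. The median difference of the 32 was -0.12, beside -0.002 over all genes. Rbp7 read 4.95, 4.96, 4.49 and 4.93 in VITA livers, where it was detected on 0 of 4 arrays, against 6.55, 5.28, 7.28 and 6.13 in vehicle livers. It was at least 1.64-fold lower in VITA livers (adjusted p = 0.02). The Rbp7 call was lost without VITA replicate 3, vehicle replicate 1 or vehicle replicate 3, at differences of -1.40 to -1.15 (adjusted p = 0.062 to 0.11). Rbp4, which carries retinol in plasma, differed by -0.87 (SE 0.33), and its adjusted p of 0.26 missed the threshold. Among enzymes of retinol oxidation, Rdh16 differed by 1.16 (adjusted p = 0.37), Adh4 by 0.00 and Aldh1a1 by 0.05, and retinol saturase (Retsat) by -0.08. The second retinoic acid hydroxylase, Cyp26b1, differed by 0.80 (adjusted p = 0.28).

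The named receptor genes were not called. Rara differed by -0.05 (SE 0.18), Rarb by 0.17 (SE 0.18) and Rxra by -0.03 (SE 0.18), each with overlapping groups. Of 27 tested receptors and genes known to respond to retinoic acid, 2 were called, both higher (Cyp26a1 and Cyp2c22), and the median was 0.01. Crabp1, a retinoic acid carrier, was detected on 2 of the 36 arrays and was not tested.

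The largest changes of the whole comparison were in Cyp2c genes, which in the GRCr8 annotation lie together on chromosome 1: Cyp2c12, Cyp2c13 and Cyp2c22 have 0 other protein-coding genes between them. Cyp2c22 codes for a rat liver enzyme that hydroxylates retinoic acid. Its log2 levels were 14.31, 14.32, 14.26 and 14.68 in VITA livers, against 10.92, 11.58, 9.14 and 9.24 in vehicle livers. The 4 VITA arrays lay close together and far above every vehicle array. Cyp2c22 was about 18-fold higher in VITA livers (4.17, SE 0.34, adjusted p = 1.9e-10). Cyp2c13, a male-specific steroid hydroxylase, read 14.41, 14.17, 14.16 and 14.37 in VITA livers, against 9.05, 10.57, 7.98 and 7.34 in vehicle livers. It was 46.7-fold higher (5.54, SE 0.51, adjusted p = 3.6e-09), and the difference was 6.15 without vehicle replicate 2 and 4.44 without slide 3, called in both cases. In both genes the vehicle arrays were spread over more than 2 log2 units while the VITA arrays were close together. Vehicle replicates 1 and 2, on slide 1, read higher in both genes than replicates 3 and 4, on slide 3. Within slide 1 the difference was 3.06 for Cyp2c22 and 4.61 for Cyp2c13, and within slide 3 it was 5.49 and 6.71. The part of the slide in this spread was not tested.

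Cyp2c12, the female-specific member that hydroxylates sulphated steroids, went the opposite way. It read 9.66, 9.55, 8.85 and 9.07 in VITA livers, against 14.24, 14.19, 13.97 and 14.07 in vehicle livers. It was 28.6-fold lower in VITA livers (-4.84, SE 0.36, adjusted p = 2.8e-11). Cyp2c55 was detected on 0 of 4 VITA arrays and 4 of 4 vehicle arrays, with log2 levels of 4.70, 5.24, 5.08 and 5.22 in VITA livers against 7.04, 8.05, 7.73 and 6.08 in vehicle livers. It was at least 3.11-fold lower (adjusted p = 9.1e-05), and this call was lost in the authors' deposited value table. Cyp2c6v1, a constitutive liver form, was 2.30-fold higher in VITA livers (1.20, SE 0.27, adjusted p = 0.014), with 13.13, 13.02, 13.02 and 12.85 in VITA livers against 11.98, 12.81, 11.62 and 10.80 in vehicle livers. Without vehicle replicate 4, the lowest array, Cyp2c6v1 differed by 0.87 and was not called (adjusted p = 0.11). The male-specific Cyp2c11 read 13.83, 14.10, 13.94 and 14.07 in VITA livers, against 13.47, 13.08, 12.93 and 13.56 in vehicle livers. Although its groups did not overlap, its difference of 0.73 (SE 0.50) was not called (adjusted p = 0.67). Cyp2c7, a female-predominant form that also hydroxylates retinoic acid, differed by 0.88 (SE 0.25, adjusted p = 0.077) and was called without vehicle replicate 2 (1.06, adjusted p = 0.032). Cyp2c genes are close paralogs, and how far a probe takes up a neighbour's RNA was not tested.

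The windows before the starts of the 3 most changed Cyp2c genes are shown because genes side by side moved in opposite directions; capitals mark single half-sites of the same kind. All are from GRCr8, minus strand: Cyp2c22 at chr1:248980768-248981017, Cyp2c13 at chr1:248787189-248787438 and Cyp2c12 at chr1:248677035-248677284.
Cyp2c22: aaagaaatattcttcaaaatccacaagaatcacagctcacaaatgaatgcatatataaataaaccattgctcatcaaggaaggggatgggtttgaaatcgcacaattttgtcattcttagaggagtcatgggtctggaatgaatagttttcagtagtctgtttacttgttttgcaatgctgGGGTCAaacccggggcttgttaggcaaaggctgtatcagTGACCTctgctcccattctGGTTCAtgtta
Cyp2c13: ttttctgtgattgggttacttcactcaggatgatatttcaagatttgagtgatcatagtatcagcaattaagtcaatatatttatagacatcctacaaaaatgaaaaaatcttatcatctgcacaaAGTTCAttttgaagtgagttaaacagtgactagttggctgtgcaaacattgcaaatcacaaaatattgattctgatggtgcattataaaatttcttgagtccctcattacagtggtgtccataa
Cyp2c12: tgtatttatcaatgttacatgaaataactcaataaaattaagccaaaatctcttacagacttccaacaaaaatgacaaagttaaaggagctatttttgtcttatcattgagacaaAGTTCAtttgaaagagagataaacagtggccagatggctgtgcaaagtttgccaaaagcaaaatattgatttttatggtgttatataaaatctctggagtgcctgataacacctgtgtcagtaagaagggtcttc
Cyp2c22 holds 3 half-sites, and Cyp2c13 and Cyp2c12 hold 1 each, AGTTCA, within a longer stretch of similar letters. No pair forms a direct repeat spaced by 1, 2 or 5 bases in these windows. Single half-sites are common: 39.1% of all promoter windows hold at least 1, and 38 of the 90 windows of called genes (42.2%).

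**Figure D2:**
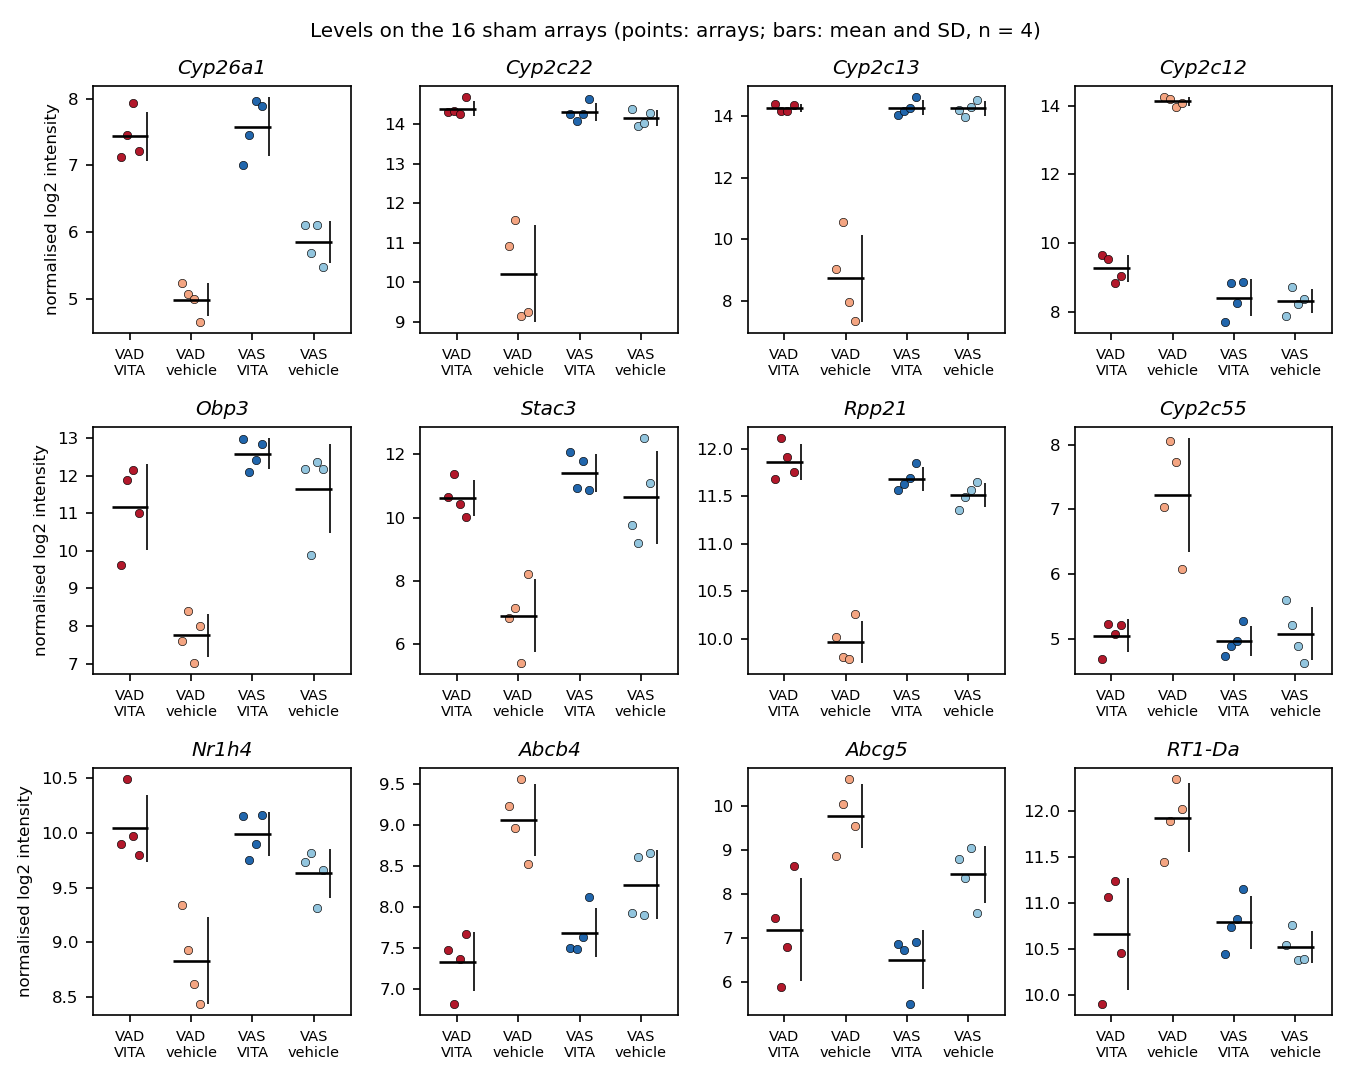
Normalised log2 intensity of 12 genes on the 16 sham arrays; points are arrays, horizontal bars group means and vertical bars 1 SD (n = 4). Cyp2c22, Cyp2c13, Obp3, Stac3 and Rpp21 are low on every VAD vehicle array and Cyp2c12, Cyp2c55 and RT1-Da are high there, and for Cyp2c22, Cyp2c13 and Rpp21 the VAD VITA arrays lie near the VAS arrays.

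The genes of 3 urinary proteins of male rats rose, while 5 listed relatives were not called. Obp3, which codes for a lipocalin secreted into male urine, read 9.63, 11.89, 12.15 and 11.02 in VITA livers, against 7.59, 8.39, 7.02 and 7.99 in vehicle livers. It was 10.8-fold higher (3.43, SE 0.48, adjusted p = 3e-05). The major urinary protein genes Mup18 and Mup4l3 were 6.03-fold higher (2.59, SE 0.53, adjusted p = 0.0071) and 5.84-fold higher (2.55, SE 0.56, adjusted p = 0.012). Across the VITA arrays all 3 were lowest in replicate 1, where Mup18 read 9.58 and Mup4l3 11.49. All 3 were highest in VITA replicates 2 and 3, on slide 2, which held no VAD sham vehicle array. Within slide 1 the difference was 1.64 for Obp3, 1.26 for Mup18 and 1.22 for Mup4l3. Within slide 3 it was 3.52, 1.70 and 1.84, with 1 VITA array on either slide. Without VITA replicate 2 neither Mup18 (2.18, adjusted p = 0.052) nor Mup4l3 was called, and Mup4l3 was also lost without VITA replicate 3 (2.18 to 2.24, adjusted p = 0.051 to 0.07). Both Mup18 and Mup4l3 also lost the call without slide 3 and with only the groups compared. The relatives not called were Mup4 (0.41), Mup5 (-0.32) and 3 genes with LOC names, between -0.40 and 0.73. These genes lie in 1 family on chromosome 5 with many close copies, so signal from related transcripts cannot be separated here.

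The remaining sex-dependent genes did not follow as a group. Of 27 genes known to be higher in male rat liver, 3 rose (Cyp2c13, Obp3 and Mup4l3), 0 fell, and the median was -0.02. Of 21 known to be higher in female liver, 2 fell (Cyp2c12 and Cyp17a1), 0 rose, and the median was 0.12. Cyp17a1, a steroid hydroxylase, read 7.91, 6.58, 5.93 and 6.88 in VITA livers, against 8.23, 8.45, 9.63 and 7.39 in vehicle livers. Its groups overlapped, and its difference of -1.60 (SE 0.42, adjusted p = 0.047) lost the call in 13 of the 17 alternative settings that gave a test, among them without any 1 of VITA replicates 2 to 4 or vehicle replicates 1 to 3 (adjusted p = 0.071 to 0.21). In the growth hormone and IGF list 0 of 20 genes were called, with a median of 0.03. With 1.3% called over all genes, a list of this size can hold 0 without differing from other genes. The growth hormone receptor gene Ghr differed by 0.75 (SE 0.24, adjusted p = 0.15) and overlapped between groups, and was called with median scaling (0.97, adjusted p = 0.033). Across 68 enzymes of xenobiotic metabolism, 3 rose and 2 fell, all of them Cyp2c genes, with a median of 0.05. The glutathione transferase gene Gsta2 was not called, with 13.17, 13.05, 13.14 and 12.92 in VITA livers against 12.34, 11.97, 11.38 and 11.33 in vehicle livers (1.32, SE 0.36, adjusted p = 0.06). It was called in 5 of 17 settings, among them without vehicle replicate 1 (adjusted p = 0.043).

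Among the other genes with large increases, several are known from other tissues. Stac3, which couples excitation to contraction in skeletal muscle, read 10.64, 11.39, 10.43 and 10.03 in VITA livers, against 6.82, 7.15, 5.42 and 8.22 in vehicle livers. It was 13.2-fold higher (3.72, SE 0.46, adjusted p = 3.1e-06). Rpp21, a protein subunit of ribonuclease P, read 11.68, 12.11, 11.91 and 11.75 in VITA livers, against 10.02, 9.81, 9.78 and 10.26 in vehicle livers. Its 3.72-fold increase had an adjusted p of 3.5e-10 (1.90, SE 0.16). Abcc8, the sulphonylurea receptor of potassium channels, was 3.77-fold higher, with 7.51, 7.89, 7.68 and 7.62 in VITA livers against 5.33, 6.16, 6.60 and 4.96 in vehicle livers (adjusted p = 0.00019). It was detected on 2 of 4 vehicle arrays. Slc2a5, the fructose transporter, was 4.01-fold higher, with 10.43, 10.67, 10.17 and 10.57 in VITA livers against 8.55, 8.41, 8.45 and 8.40 in vehicle livers (adjusted p = 0.012). In these genes every VITA array lay above every vehicle array. Without slide 3 the Slc2a5 difference was 1.94 (adjusted p = 0.21).

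Further increases were found in genes of varied function. The aldo-keto reductase gene AKR1C3l1 was 5.07-fold higher (2.34, SE 0.42, adjusted p = 0.0013), and Irs3, an insulin receptor substrate, was 4.48-fold higher (2.16, SE 0.50, adjusted p = 0.017). The Irs3 call was lost without VITA replicate 1, VITA replicate 2 or vehicle replicate 4 (1.95 to 2.08, adjusted p = 0.06 to 0.087). Ltc4s, which makes leukotriene C4, was detected on 3 of 4 VITA arrays and 0 of 4 vehicle arrays. It was at least 2.60-fold higher (adjusted p = 0.0024), although it was not called without slide 3 (adjusted p = 0.22) and VITA replicate 1, at 5.41, lay below the highest vehicle array, at 5.57. Gdf15, a stress-responsive cytokine, read 8.49, 6.82, 7.65 and 7.17 in VITA livers, against 5.14, 5.18, 6.59 and 4.94 in vehicle livers. In vehicle livers Gdf15 was detected on 1 of 4 arrays. Its 4.20-fold difference (adjusted p = 0.033) lost the call in 10 of 17 settings, 5 of them without VITA replicate 1 or 3 or vehicle replicate 1, 2 or 4 (adjusted p = 0.074 to 0.16). Abcb9, a lysosomal peptide transporter, was 3.51-fold higher (adjusted p = 0.026) and lost the call in 7 of 17, among them without VITA replicate 2 or 4 or vehicle replicate 3 or 4 (adjusted p = 0.051 to 0.12).

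Genes of bile formation moved in both directions. Nr1h4, which codes for the bile acid receptor FXR, read 9.90, 10.49, 9.97 and 9.80 in VITA livers, against 9.34, 8.93, 8.62 and 8.44 in vehicle livers. It was 2.31-fold higher (1.21, SE 0.29, adjusted p = 0.027) and lost the call in 8 of 17 settings, among them without VITA replicate 1 or 2 or vehicle replicate 3 or 4 (adjusted p = 0.053 to 0.13). Its target Nr0b2 differed by -0.37 (SE 0.46, adjusted p = 0.86), and the bile acid synthesis enzymes Cyp7a1 and Cyp8b1 by 0.23 (SE 0.57) and -0.64 (SE 0.74), all with overlapping groups. Nr1h4 was the 1 gene called among 20 of bile acid synthesis and its regulators.

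The genes of 2 transporters of bile lipids were lower. Abcb4, which moves phosphatidylcholine into bile, read 7.48, 6.82, 7.37 and 7.67 in VITA livers, against 9.23, 8.96, 9.56 and 8.52 in vehicle livers. It was 3.32-fold lower (-1.73, SE 0.31, adjusted p = 0.0012) and kept the call in all 17 alternative settings that gave a test. Abcg5, a subunit of the canalicular sterol transporter, read 7.45, 5.88, 6.80 and 8.64 in VITA livers, against 8.87, 10.04, 10.60 and 9.55 in vehicle livers. It was 5.96-fold lower (-2.57, SE 0.46, adjusted p = 0.001). They were the 2 genes called among 20 bile salt, drug and lipid transporters, whose median was -0.05.

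The listed genes of intermediary metabolism that were called were Acaca, Gnmt and Nags. All were higher in VITA livers, as were 0.741% of all genes tested. Acaca, which makes malonyl-CoA for fatty acid synthesis, read 7.13, 6.79, 6.96 and 7.08 in VITA livers, against 6.29, 6.31, 5.15 and 5.76 in vehicle livers (1.11, SE 0.25, adjusted p = 0.014). In vehicle livers Acaca was detected on 2 of 4 arrays. It was the 1 gene called of 29 of lipogenesis and desaturation, of which 20 had differences above 0 and whose median was 0.27. An unadjusted p under 0.05 (limma) was reached by 13 of the 29, against 1066 of 9314 genes tested. The desaturase gene Scd, at 14.71, 15.01, 14.69 and 15.01 in VITA livers against 14.26, 13.42, 13.14 and 13.77 in vehicle livers, was not called although the groups did not overlap (1.20, SE 0.64, adjusted p = 0.5). Its regulator Srebf1 differed by 0.57 (adjusted p = 0.67). Of 42 genes of the urea cycle and amino acid breakdown, 2 rose: Gnmt, which consumes S-adenosylmethionine, by 1.19 (SE 0.27, adjusted p = 0.017), and Nags, which makes the activator of the urea cycle, by 0.62 (SE 0.14, adjusted p = 0.017). Gnmt read 13.26, 13.35, 13.36 and 13.14 in VITA livers, against 11.82, 11.76, 12.34 and 12.44 in vehicle livers. In glucose metabolism 0 of 24 genes were called (median 0.17), and Pck1, which codes for the gluconeogenic enzyme PEPCK, differed by -0.51 (adjusted p = 0.62). Some of these calls did not survive leaving out 1 array: Acaca was lost without VITA replicate 1 or vehicle replicate 3 or 4 (adjusted p = 0.053 to 0.085), Gnmt without VITA replicate 2 or vehicle replicate 1 or 2 (0.057 to 0.062), and Nags without VITA replicate 1 or 2 or vehicle replicate 1 or 4 (0.06 to 0.094). The lists of cholesterol synthesis (22 genes), fatty acid oxidation (41), antioxidant genes (29), endoplasmic reticulum stress (26) and the circadian clock (15) each held 0 called genes, with medians between -0.19 and 0.08.

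In VITA livers 3 genes of class II antigen presentation were lower. RT1-Da, an alpha chain of the class II complex, read 9.90, 11.07, 11.24 and 10.45 in VITA livers, against 11.45, 11.89, 12.35 and 12.03 in vehicle livers. It fell by 1.26 on the log2 scale (SE 0.24, adjusted p = 0.0028). The beta chain gene RT1-Db1 fell by 1.21 (SE 0.29, adjusted p = 0.028) and the alpha chain gene RT1-Ba by 1.16 (SE 0.27, adjusted p = 0.021), and each of these lost its call in 8 of 17 settings, among them without VITA replicate 1 or 4 or vehicle replicate 4 (adjusted p up to 0.18 and 0.16). Without slide 3 the RT1-Da difference was -0.94 (adjusted p = 0.18). They were the 3 genes called of 19 in antigen presentation, whose median was -0.07. The class II invariant chain gene Cd74 differed by -0.95 (adjusted p = 0.12). In the 3 called genes replicates 1 and 4 were the lowest of the VITA arrays. Beside them, 0 of 16 macrophage markers were called, with a median of -0.22 and mean levels per array of 8.52 to 8.80 in VITA livers against 8.39 to 9.17 in vehicle livers. Of the B and plasma cell markers 2 of 6 with a probe were tested; their mean levels were 4.85 to 5.33 in VITA livers and 5.70 to 6.11 in vehicle livers, and Jchain, the joining chain of immunoglobulins, differed by -1.30 (adjusted p = 0.22). The part of these cells in the class II difference was not tested.

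Other immune and wound genes mostly missed the threshold. In the acute-phase (25 genes), complement and coagulation (34), interferon-stimulated (32) and chemokine and cytokine (33) lists 0 genes were called. The neutrophil attractant gene Cxcl1 read 7.97, 8.34, 9.96 and 9.45 in VITA livers, against 10.18, 12.78, 8.74 and 12.36 in vehicle livers, with a difference of -2.08 (SE 0.72, adjusted p = 0.19) and overlapping groups. Without vehicle replicate 3 it was called (-2.84, adjusted p = 0.042). Lcn2, an acute-phase lipocalin, differed by -0.85 (SE 0.75, adjusted p = 0.77). Timp1, an inhibitor of matrix proteases, read 7.26, 7.11, 7.36 and 7.66 in VITA livers, against 8.29, 8.26, 8.29 and 8.71 in vehicle livers. It was the 1 gene called of 39 in collagen and matrix (-1.04, SE 0.27, adjusted p = 0.046), and lost the call in 14 of 17 settings, among them without any 1 of the 8 arrays other than VITA replicate 4 (adjusted p = 0.062 to 0.17). Col1a1, the main fibrillar collagen gene, was detected on 0 of 4 VITA arrays and 0 of 4 vehicle arrays. S100a4, a calcium-binding protein of motile cells, fell by 1.29 (SE 0.32, adjusted p = 0.028), with a call lost in 10 of 17 settings, among them without VITA replicate 1 or 2 or vehicle replicate 2 or 4 (adjusted p = 0.055 to 0.15). Cav2, a caveolar protein and the 1 gene called of 14 endothelial markers, read 7.19, 7.02, 7.85 and 7.30 in VITA livers, against 9.05, 8.35, 8.82 and 8.82 in vehicle livers (-1.42, SE 0.23, adjusted p = 0.00021). In the lists of stellate cells (16 genes tested), cholangiocytes (11), T and NK cells (12), neutrophils (6), erythroid cells (5) and the pancreas (3), 0 genes were called. The cell cycle list likewise had 0 of 31 called, and Ccnd1 differed by -1.32 (adjusted p = 0.23).

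**Figure D3:**
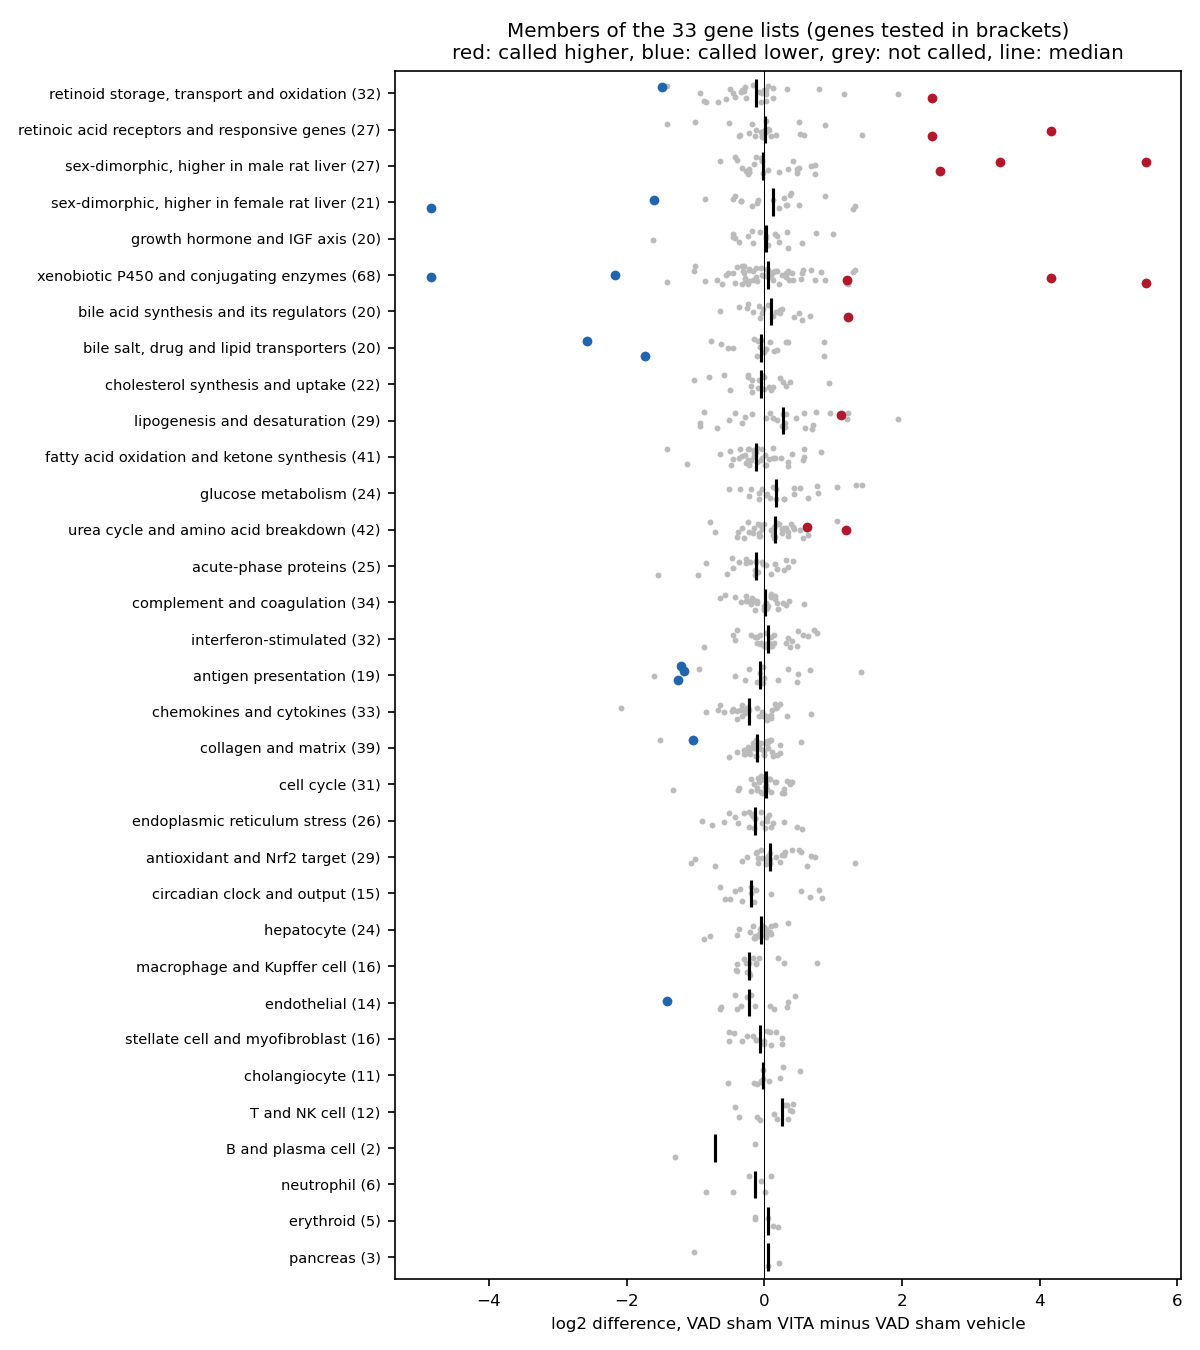
Each point is a gene of 1 of 33 lists, placed by its log2 difference of VITA minus vehicle in VAD sham liver; red and blue points are genes called higher and lower, grey points were not called and black lines are medians. All list medians lie between -0.72 and 0.27, while single Cyp2c genes lie beyond 4 on either side.

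Several lower genes belong to none of these processes. Pla2g12a, a secreted phospholipase, read 7.85, 7.06, 9.37 and 7.94 in VITA livers, against 10.02, 10.58, 11.41 and 10.36 in vehicle livers, and was 5.81-fold lower (-2.54, SE 0.37, adjusted p = 7.2e-05). Ncald, a neuronal calcium sensor, read 6.91, 6.68, 6.81 and 7.01 in VITA livers, against 9.71, 8.57, 9.22 and 9.41 in vehicle livers, and was 5.20-fold lower (-2.38, SE 0.38, adjusted p = 0.00019). Pla1a, a phosphatidylserine-specific phospholipase, was detected on 0 of 4 VITA arrays and was at least 2.65-fold lower (adjusted p = 5.4e-05). In the authors' deposited value table Pla1a differed by -0.43 (adjusted p = 0.33), and without slide 3 Pla2g12a differed by -2.21 (adjusted p = 0.089). Colq, the collagen tail of acetylcholinesterase, was 3.94-fold lower (adjusted p = 0.014), and the actin-binding gene Ablim3 3.52-fold lower (adjusted p = 0.0088). Colq and Ablim3 were each detected on 2 of 4 VITA arrays. The transcription factor gene Mybl1 was at least 1.89-fold lower (adjusted p = 0.012), and Gtse1, a microtubule protein of dividing cells, 2.52-fold lower (adjusted p = 0.037), a call lost in 9 of 17 settings, 6 of them without single arrays other than VITA replicate 3 and vehicle replicate 1 (adjusted p = 0.052 to 0.17). Calls were also lost for Mybl1 without vehicle replicate 3 (adjusted p = 0.065), for Ablim3 without VITA replicate 1 or 2 (0.053 and 0.054) and for Colq without VITA replicate 1 or 2 or vehicle replicate 3 (0.057 to 0.061). In all of these every VITA array lay below every vehicle array.

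The same injections were given to vitamin A sufficient sham rats, which shows whether the response depended on the diet. In VAS sham liver 2 of 9314 genes were called, both lower with VITA: Ncald (-1.99, adjusted p = 0.036) and Hcfc2, a cofactor of transcription (-1.28, adjusted p = 0.036). These calls were lost in many settings: 0 genes were called in VAS sham with normexp, median scaling, the authors' deposited value table, no filter or only the groups compared, nor without any 1 of VAS VITA replicates 1 to 3 or VAS vehicle replicates 1 to 3. Ncald was not called with slide or the replicate number as a block, and Hcfc2 was not called without VAS VITA replicate 4 or VAS vehicle replicate 4. An unadjusted p under 0.05 (limma) was reached there by 347 genes, fewer than a share of 0.05, against 1066 in VAD sham liver. Ncald read 5.96, 6.45, 6.23 and 7.38 in VAS livers with VITA, against 9.41, 9.29, 8.53 and 6.74 in VAS livers with vehicle, and was the 1 gene called in both diets with all arrays. The difference between the diets was tested directly as an interaction, and 20 genes were called (0.215%). In 13 the VITA difference was more positive in VAD than in VAS rats, and in 7 it was more negative. Cyp2c13 had the largest interaction, at 5.52 (SE 0.72, adjusted p = 1.5e-05), with VITA differences of 5.54 in VAD and 0.02 in VAS livers. In Cyp2c12 the interaction was -4.95 (SE 0.51, adjusted p = 3e-07), with -4.84 in VAD and 0.11 in VAS livers. Cyp2c22 differed by 4.02 (SE 0.48, adjusted p = 4.5e-06) between the diets, Stac3 by 2.95 (adjusted p = 0.041), Rpp21 by 1.73 (adjusted p = 1.5e-05) and Mettl7b, a methyltransferase of lipid droplets, by 1.69 (adjusted p = 0.038). Mettl7b itself was 3.10-fold higher in VAD livers with VITA (adjusted p = 0.00019). Interactions below 0 were also called for Cyp2c55 (-2.05), Pla1a (-1.91), the protease gene Ctse (-1.74), Cav2 (-1.56) and RT1-Da (-1.53). These genes fell with VITA in VAD livers, while their VITA differences in VAS livers were between -0.11 and 0.46. Cyp2c55, Pla1a and Ctse were detected on 0 of 4 arrays in VAD sham VITA, VAS sham VITA and VAS sham vehicle, so the size of their interactions depends on background levels. Without slide 3, 8 interaction genes were called. With single arrays of the 16 left out, the interaction call was lost in 14 cases for Cyp2c55 (adjusted p = 0.057 to 0.13), 12 each for Mettl7b (0.051 to 0.12) and RT1-Da (0.052 to 0.14), 11 for Stac3 (0.057 to 0.12), 9 for Cav2 (0.051 to 0.09) and 4 for Ctse (0.051 to 0.068).

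For other genes no dependence on diet was shown. Cyp26a1 read 7.01, 7.46, 7.96 and 7.89 in VAS livers with VITA, against 6.11, 5.69, 6.11 and 5.48 in VAS livers with vehicle. Those groups did not overlap. The VAS difference was 1.73 (adjusted p = 0.72) and the interaction 0.71 (adjusted p = 1.0). Cyp26a1 was detected on 0 of 4 VAD vehicle and 2 of 4 VAS vehicle arrays, so the size of its interaction depends on background levels. Abcg5 differed by -1.94 in VAS livers (adjusted p = 0.26) with an interaction of -0.63, and Cyp17a1 by -1.60 in either diet, with an interaction of 0.00. Of the 121 genes called in VAD sham, 93 had the same sign of difference in VAS sham (76.9%), against 54.9% of all genes tested. Missing the threshold does not show that the diets responded alike.

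A further comparison asked how near retinyl palmitate brought deficient livers to those of sufficient sham rats given vehicle. Between VAD sham VITA and VAS sham vehicle livers limma called 0 of 9314 genes. An unadjusted p under 0.05 (limma) was reached by 449, no more than the share of 0.05 that would pass if no gene differed. Missing the threshold does not show that these livers were alike. Scd2, a stearoyl-CoA desaturase (1.20, adjusted p = 0.073), and Serpinb1a, a protease inhibitor (1.01, adjusted p = 0.092), came closest. With slide as a block these 2 genes were called, with the replicate number as a block 1 (Scd2), and without VAS vehicle replicate 4 or without slide 3 another 1 (Ncald, -2.22 and -2.27). Cyp2c13 differed by 0.02 between repleted and sufficient livers, Cyp2c22 by 0.23, Stac3 by -0.03 and Obp3 by -0.48. Cyp2c12 differed by 0.96 (adjusted p = 0.97): it read 9.66, 9.55, 8.85 and 9.07 in VAD livers with VITA, all above the 7.89, 8.74, 8.26 and 8.40 of VAS livers with vehicle. Cyp26a1 differed by 1.59 (adjusted p = 0.86), with the VAD VITA arrays above every VAS vehicle array. Abcg5 and Pla2g12a were at -1.26 and -1.41. Over the 121 genes the median absolute difference between repleted and sufficient livers was 0.30, against 0.13 over all genes tested. This comparison uses the same 4 VAD sham VITA arrays that entered the 121 calls, so the 0.30 is not independent of how those genes were picked.

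The deficient vehicle livers can also be set against the sufficient ones, but that comparison shares the 4 VAD vehicle arrays with the one reported here, so values are given side by side only. VAD vehicle minus VAS vehicle was -5.52 for Cyp2c13, -3.94 for Cyp2c22, -3.74 for Stac3 and -3.91 for Obp3, beside VITA minus vehicle of 5.54, 4.17, 3.72 and 3.43. In Cyp2c12 it was 5.80, beside -4.84. Cyp26a1 had -0.85 (adjusted p = 0.63), beside 2.44, and Abcg5 1.32 (adjusted p = 0.19), beside -2.57. Both Cyp26a1 values depend on background levels, since it was detected on 0 of 4 VAD vehicle arrays.

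**Figure D4:**
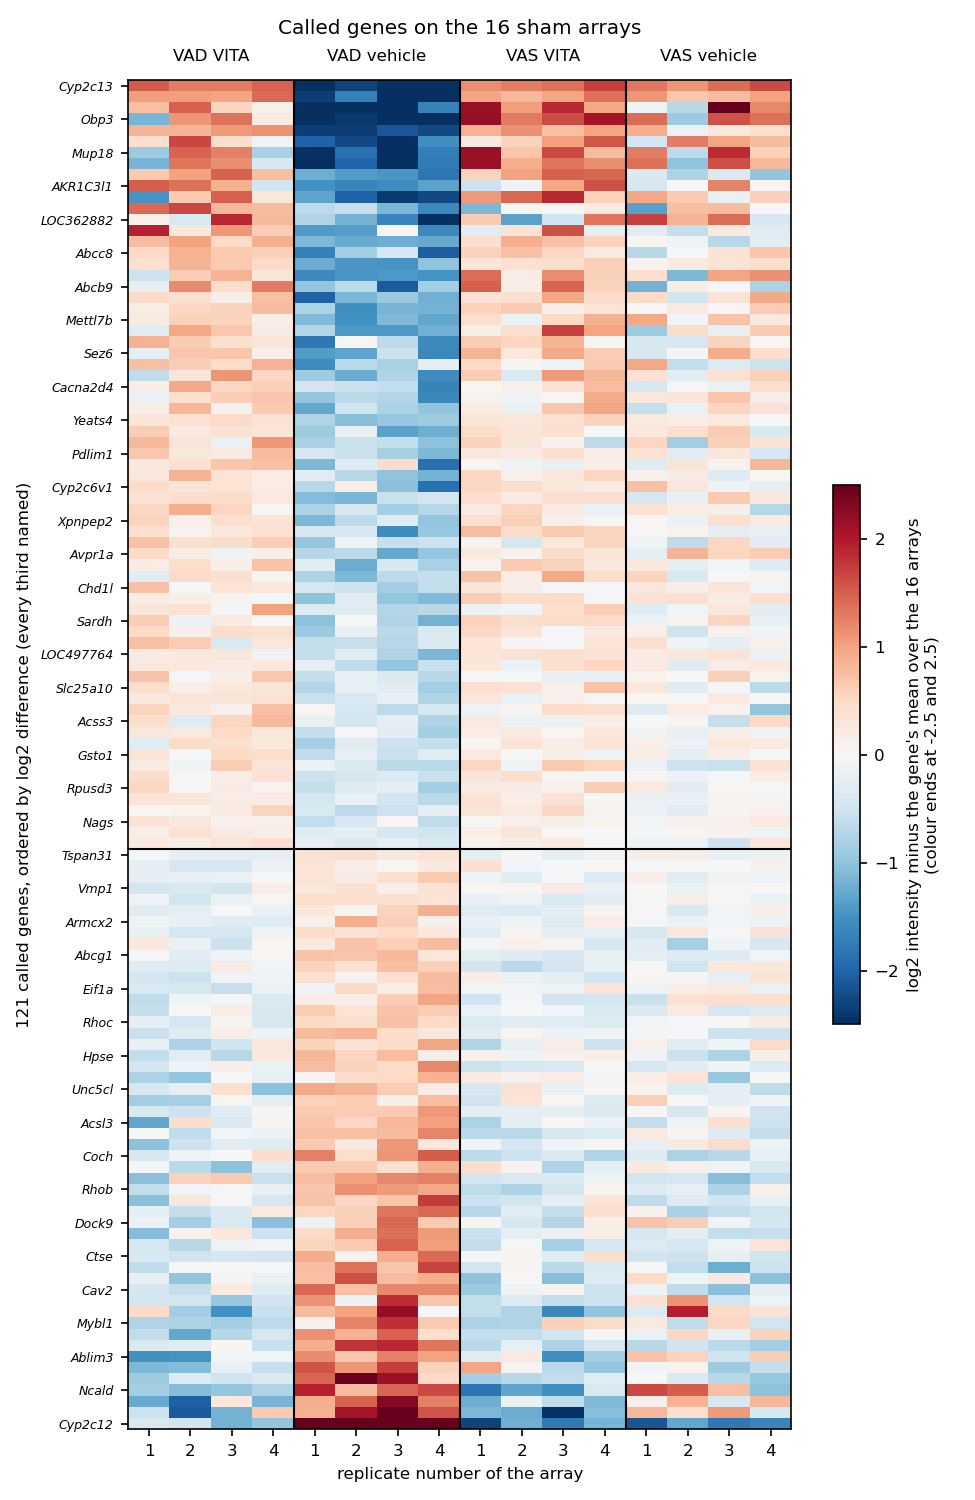
The 121 called genes (rows, ordered by log2 difference) on the 16 sham arrays (columns, by group and replicate), coloured by log2 intensity minus the gene's mean over the 16 arrays. The 4 VAD vehicle columns are mostly blue above the dividing line (69 genes higher in VITA) and mostly red under it (52 genes lower).

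An independent set of arrays measured the same injections in VAD rats with bile duct ligation, 5 rats with VITA and 5 with vehicle. There 714 genes were called higher (7.67%) and 868 lower (9.32%). Of the 69 genes called higher in VAD sham, 38 were also called higher after ligation, 55.1% of the sham genes and 5.32% of the ligation genes. Of the 52 lower genes 24 were also lower, 46.2% of the sham genes and 2.76% of the ligation genes. The sign was the same for 109 of the 121 genes (90.1%), against 59.3% of all genes tested. Only 1 gene was called in opposite directions, the dipeptidase gene Cndp2 (0.67 in sham and -0.47 after ligation), which was singled out after its values were seen.

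Several Cyp2c genes were called in both operations. Cyp2c13 differed by 4.70 after ligation (adjusted p = 6.6e-09) and 5.54 in sham, Cyp2c22 by 2.13 and 4.17, Cyp2c12 by -1.70 and -4.84, and Cyp26a1 by 1.75 (adjusted p = 0.0098) and 2.44. Cyp26a1 was detected on 3 of 5 VITA and 0 of 5 vehicle arrays after ligation. Rpp21 differed by 1.23 and 1.90, Nr1h4 by 1.59 and 1.21, and Gnmt by 2.00 and 1.19. After ligation Stac3 was detected on 0 of 5 VITA and 0 of 5 vehicle arrays, so no difference can be given beside its 3.72 in sham. Obp3 was detected there on 3 of 5 VITA and 0 of 5 vehicle arrays and was not called (adjusted p = 0.24), beside 3.43 in sham. S100a4 differed by -2.83 and -1.29, and Timp1 by -2.32 and -1.04. Cyp2c7 and Cyp2c11, which missed the threshold in sham, were called after ligation at 3.17 (adjusted p = 1.7e-11) and 2.82 (adjusted p = 2.3e-05). Whether the response differed between operations was not tested.

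**Figure D5:**
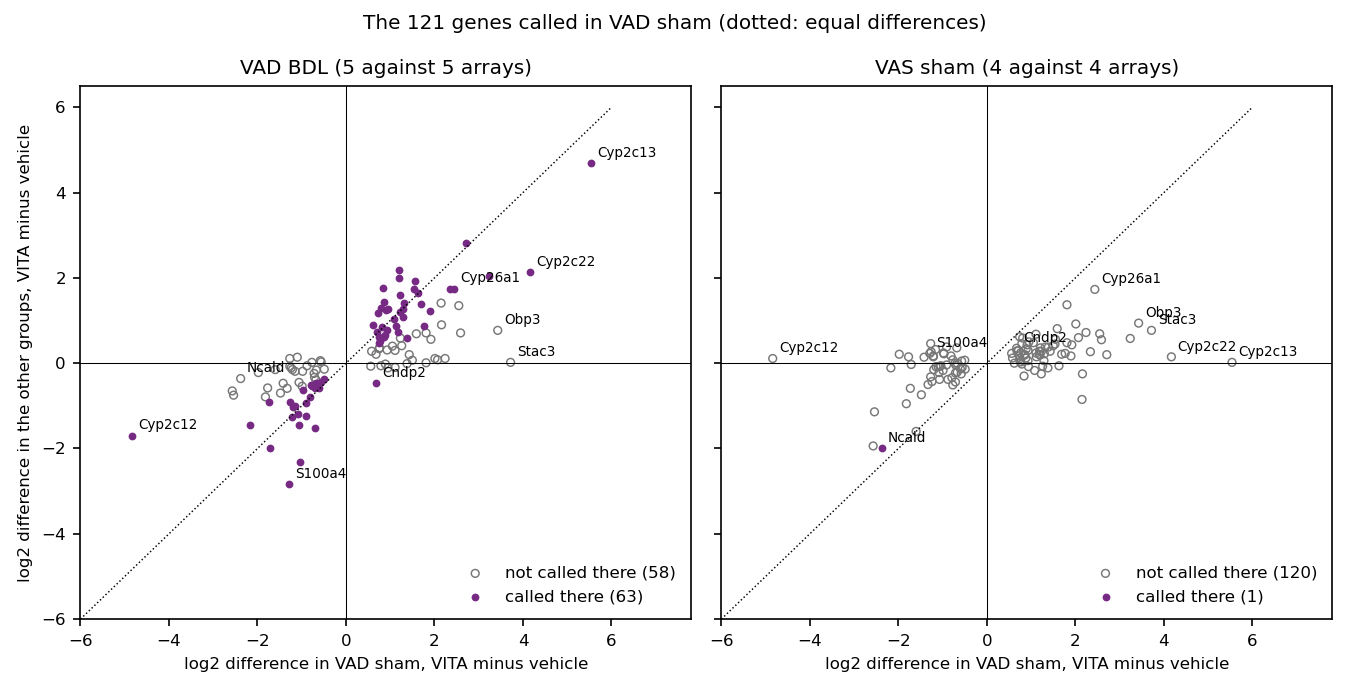
The 121 genes called in VAD sham, with their log2 difference of VITA minus vehicle there on the horizontal axis and in VAD BDL (left) or VAS sham (right) on the vertical axis; filled points were also called in those groups, and the dotted line marks equal differences. On the left 63 genes are filled and Cyp2c13 lies near the line, while Stac3 was at background after ligation; on the right 1 gene, Ncald, is filled and the Cyp2c genes lie near 0.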

How the data were processed

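Liver RNA of 36 rats was hybridised as biotin-labelled cRNA to Illumina RatRef arrays (3 slides of 12), per the labels' protocols. The deposited non-normalised table gives, per the file headers, an average signal (a linear intensity) and a detection p-value for 22523 probes on each array. A value table by the authors holds linear intensity too, with every array's median at 212 and ranks equal to those of the raw values (Spearman 1). Its scaling and centring stay unknown, and the labels name no scanner software.

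Intensities were corrected and quantile normalised with neqc (limma 3.58.1, R 4.3.3; offset 16, negative controls inferred from the detection p), then put on the log2 scale; the deposited files hold no log2 values. A probe needed a detection p under 0.01 on 4 or more arrays (9545 probes), and the brightest stood for its gene (9314 genes). Of 218 genes with several kept probes, 0 had probes called in opposite directions. Names were matched to a RefSeq table (GRCr8): 9578 probes by symbol, 1824 by gene ID, 5419 by synonym (74.7% in all), and 5702 stayed under their deposited name. The linear model had the 8 groups as means, with 28 residual degrees of freedom, and gave each contrast with moderated errors and Benjamini-Hochberg adjustment over all genes. The labels call the samples biological replicates. A called gene detected on no array of a group has a lower bound: the bright group's mean against the higher of the lowest detected signal and the probe's own. Promoter sequences are RefSeq's. Tables were made with pandas 2.3.3 in Python 3.11.15 and plots with matplotlib 3.10.9.

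Named genes were the 15 largest called in each direction (LOC, RGD and MGC names skipped), the called members of 33 gene lists (at most 6 per list, or the largest where none was called), a panel of 30 genes and the 5 largest interactions in each direction. The members, the lists and the rule were chosen with earlier results of these data known. Fasn and Igf1 have no probe under that name, and some panel genes are not reported here. Same-numbered VITA and vehicle arrays correlated between -0.09 and 0.18 in their deviations from group means, so replicate numbers were not treated as pairs. Alternatives were normexp with offset 50, median scaling, the authors' table, no filter, a filter of 18 arrays, every probe, slide or replicate number as a block, only the groups compared and each array left out.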

Additional observations from a re-analysis of the deposited data

Results flagged for a closer look

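In 9 groups of 4 arrays 1 array lay far from the other 3, by a gap test that chance alone passes in about 1 of 20 groups, out of 160 groups of named genes and the detection counts looked at. Among VITA livers these were replicate 4 for Cyp2c22 (14.68) and Cyp8b1 (11.87), replicate 3 for Rbp7 (4.49) and replicate 1 for S100a4 (5.69). Among vehicle livers they were replicate 3 for Gdf15 (6.59) and Pck1 (14.47), and replicate 4 for RT1-Db1 (9.13), Timp1 (8.71) and the number of probes detected (6577).

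In 11 named genes the response to retinyl palmitate differed between VAD and VAS sham livers by the interaction test. The interaction, on the log2 scale, was 5.52 for Cyp2c13, 4.02 for Cyp2c22, 2.95 for Stac3, 1.73 for Rpp21 and 1.69 for Mettl7b. It was -4.95 for Cyp2c12, -2.05 for Cyp2c55, -1.91 for Pla1a, -1.74 for Ctse, -1.56 for Cav2 and -1.53 for RT1-Da. Cyp2c55, Pla1a and Ctse were detected in VAD sham vehicle livers alone of these 4 sham groups.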

How the results depend on the processing

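The number of genes called between VITA and vehicle in VAD sham fell most when only those 8 arrays were fitted (39) and when slide 3 was left out, an alternative chosen after seeing the data (46). Leaving out single arrays gave 67 to 120. The replicate number as a block gave 150, and the remaining settings gave 100 to 133, against 121 as reported. In VAS sham, against 2 as reported, 0 genes were called with normexp, median scaling, the authors' table, no filter and only the groups compared. Slide as a block gave 1, the replicate block 1 and leaving out slide 3 gave 8, while leaving out single arrays gave 0 to 2. For the interaction, against 20 as reported, normexp gave 12, no filter and only the groups compared 10 each, and median scaling, the authors' table and leaving out slide 3 gave 8 each. Leaving out single arrays gave 8 to 18, and the replicate block 21. Between VAD sham VITA and VAS sham vehicle, against 0 as reported, slide as a block gave 2, the replicate block 1, leaving out slide 3 gave 1 and leaving out single arrays 0 to 1. The difference in probes detected was 391.0 and ranged from 160.6 to 503.4 without single arrays. Of the called genes that were named, 0 changed direction in any setting. Fewer arrays were fitted in some of these settings, and otherwise the cause was not tested. Genes near the background, such as Cyp26a1, Cyp2c55 and Ctse, have differences limited by signal over background. Fold differences of genes detected on only some arrays of a group, such as Gdf15, Abcc8, Acaca, Colq and Ablim3, also depend on background levels.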

Other observations

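Some called genes outside the naming rule had small errors and stood apart from the processes described above; they were singled out after their values were seen. Yeats4, a chromatin reader, was higher in VITA livers by 1.30 (SE 0.14, adjusted p = 2.9e-07), and Sh3gl3, an endophilin of membrane traffic, by 1.69 (SE 0.22, adjusted p = 9.9e-06). Cacna2d4, a calcium channel subunit, was higher by 1.39 (adjusted p = 0.00018), Epb41l1, a membrane skeleton protein, by 1.38 (adjusted p = 0.00053), and the growth factor gene Bmp7 by 1.77 (adjusted p = 0.0023). Coch, a secreted matrix protein of the inner ear, fell by 1.10 (SE 0.17, adjusted p = 0.00019). Yeats4, Sh3gl3 and Epb41l1 were also among the 20 genes whose response differed between the diets, at 1.07, 1.48 and 1.49.

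Cyp26b1, the second retinoic acid hydroxylase, missed the threshold in both diets with all arrays. In VAS sham liver it was called once VITA replicate 4 was left out (1.86, adjusted p = 0.003) and once slide 3 was left out (1.89, adjusted p = 0.019). Of the genes called in VAS sham, it was 1 of 2 in the first case, beside Ncald, and 1 of 8 in the second.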
